A study of Mus musculus with 15 samples.

Results

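Met and 7 genes that lie near it on mouse chromosome 6 (Tes, Cav2, Cav1, Capza2, St7, Cftr and Cttnbp2) were followed in 15 mouse mammary tumour samples. The genes were taken by symbol from a list of 8, and all 8 were present among the 17271 genes of the deposited table. The list was chosen by measured expression in these samples, from a stretch of the chromosome described as high in model 2151R against model 2208L, so differences between those 2 models are given below as a description, without a test. That description holds for a few of the genes only: the median difference of the 8 genes was -0.13 log2 units in 2151R minus 2208L, where the median of all genes was 0.10, and Cav1 alone lay above 2208L in every sample of 2151R.

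The tumours came from 4 models. Model 2208L had 8 samples, 2151R had 4, 2225L had 2 and T11 had 1, and every sample carries the same labels for genotype (p53-NULL), strain (Balbc) and tissue (mouse mammary tumor). No label gives the age of the animals, the origin of a model or a treatment by name. Titles mark 2 samples of 2151R as NT and give the others codes that the labels do not explain. Within 2208L, PBS stands in 4 titles, all with a DH code, and 3day nt in 3, all with a KM code. The remaining sample has neither mark. The samples of 2225L are 1 with a CP and 1 with a ROSEN library name, and the title of the CP sample also holds T-Vivo. The labels do not explain these codes. Nothing states that samples of a model came from separate animals, so p-values measure the spread between these samples, which may be technical. The CP libraries of each model carry numbers apart from those of the other models, so model and library numbering cannot be told apart among them. Each value is on a log2 scale set around 0 for its own gene, so it shows how samples differ at a gene and not which of several genes was more abundant. The table holds no counts, and sequencing depth is unknown.

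Trp53, the deleted gene, had values from 0.09 to 0.29 in 2151R, -0.01 in T11, 1.63 and -0.18 in 2225L, and from -0.29 to 0.16 in 2208L, and on a scale centred gene by gene such values cannot show whether the gene was lost. The mean of 14 mammary epithelial markers (such as Epcam, Cdh1 and Krt8) ran from -4.49 to -3.48 in 2151R, was -8.84 in T11 and 2.08 in both samples of 2225L, and ran from 0.14 to 1.18 in 2208L. The mean was thus higher in 2225L and 2208L than in 2151R, and lowest in T11, but the list is not uniform: Krt5 and Krt19 had higher means in 2151R than in 2208L, by 4.73 and 3.61 with overlapping samples. In these bulk samples, fewer cells of a type and less RNA per cell cannot be told apart.

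Met encodes the receptor tyrosine kinase that binds hepatocyte growth factor, the product of Hgf, and signals for growth, movement and invasion of epithelial cells. Its neighbours have roles of several kinds. Cav1 and Cav2 encode caveolins, which coat the flask-shaped membrane pits called caveolae. Tes encodes testin, a LIM-domain protein of focal adhesions, and Capza2 an alpha subunit of the capping protein that closes the fast-growing ends of actin filaments. Cftr encodes the chloride and bicarbonate channel of secretory epithelia that is defective in cystic fibrosis, and Cttnbp2 a cortactin-binding protein known from neurons. St7 was named as a candidate tumour suppressor. Met is known as an oncogene in carcinomas. Copy number was not measured here.

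In RefSeq's annotation of GRCm38.p6, the assembly also called mm10, all 8 genes are protein coding and lie on chromosome 6 within 1450 kb. Their order is Tes (17065149 to 17105825), Cav2 (17281185 to 17289130), Cav1 (17306335 to 17341328), Met (17463349 to 17573980), Capza2 (17637010 to 17666972), St7 (17693901 to 17943023), Cftr (18170687 to 18322770) and Cttnbp2 (18366471 to 18515217). All but Cttnbp2 are on the plus strand. The promoters of Met and Cav2, which had the same pattern over the models, and of Cav1 and Cftr, which departed from it, are shown as RefSeq gives them, from 250 bases before to 50 after the start of a transcript. Capitals mark matches on either strand to 3 short motifs, namely GGGCGG (the GC box of Sp1-type factors), TGANTCA (the AP-1 motif) and CAGGTG (the E2 box bound by Zeb and Snail factors). None of the 3 is contained in another, but copies of a motif may overlap each other.
Met (chr6:17463707-17464006, plus strand): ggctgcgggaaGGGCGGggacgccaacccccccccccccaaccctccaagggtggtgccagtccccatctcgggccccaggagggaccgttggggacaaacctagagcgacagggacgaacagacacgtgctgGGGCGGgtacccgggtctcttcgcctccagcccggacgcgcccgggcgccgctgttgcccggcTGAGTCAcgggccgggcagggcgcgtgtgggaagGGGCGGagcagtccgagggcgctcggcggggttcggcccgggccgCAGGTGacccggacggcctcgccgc
Cav2 (chr6:17280935-17281234, plus strand): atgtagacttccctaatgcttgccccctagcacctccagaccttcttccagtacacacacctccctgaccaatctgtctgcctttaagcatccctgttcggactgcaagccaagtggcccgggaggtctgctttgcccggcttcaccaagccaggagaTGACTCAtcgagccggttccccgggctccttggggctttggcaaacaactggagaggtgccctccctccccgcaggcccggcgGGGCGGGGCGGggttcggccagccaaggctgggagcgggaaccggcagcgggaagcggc
Cav1 (chr6:17306085-17306384, plus strand): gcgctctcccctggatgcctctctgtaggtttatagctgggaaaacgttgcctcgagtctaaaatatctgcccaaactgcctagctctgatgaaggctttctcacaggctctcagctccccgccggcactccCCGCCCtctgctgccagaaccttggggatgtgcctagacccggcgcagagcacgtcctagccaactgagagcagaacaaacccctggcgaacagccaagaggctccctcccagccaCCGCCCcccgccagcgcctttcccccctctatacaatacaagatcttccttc
Cftr (chr6:18170437-18170736, plus strand): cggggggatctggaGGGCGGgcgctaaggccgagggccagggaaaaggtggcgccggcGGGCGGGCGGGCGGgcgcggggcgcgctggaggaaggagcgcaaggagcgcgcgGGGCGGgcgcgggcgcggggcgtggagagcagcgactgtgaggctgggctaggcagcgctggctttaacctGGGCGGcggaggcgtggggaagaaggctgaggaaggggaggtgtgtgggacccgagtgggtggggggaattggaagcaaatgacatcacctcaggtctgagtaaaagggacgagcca

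The Met promoter held 34 CpG dinucleotides in 300 bases and that of Cftr 31, against 16 for Cav2 and 13 for the first listed promoter of Cav1. The median over 32851 promoters of this length was 7, with an upper quartile of 20. GC boxes numbered 6 in the promoter of Cftr, 3 in that of Met, and 2 each in those of Cav1 and Cav2, and 35.7% of all promoters held at least 1. An AP-1 match was found in the promoters of Met and Cav2 (1 each) and in no other listed promoter of the 8 genes, while 7.81% of all promoters had one. The E2 box occurred once in the promoter of Met and once in a second listed promoter of Cav1, and in 20.2% of all promoters. The promoters of Met and Cftr are thus both rich in CpG although the genes differed across models. A match is a string of letters and no evidence that a factor binds.

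**Figure D1:**
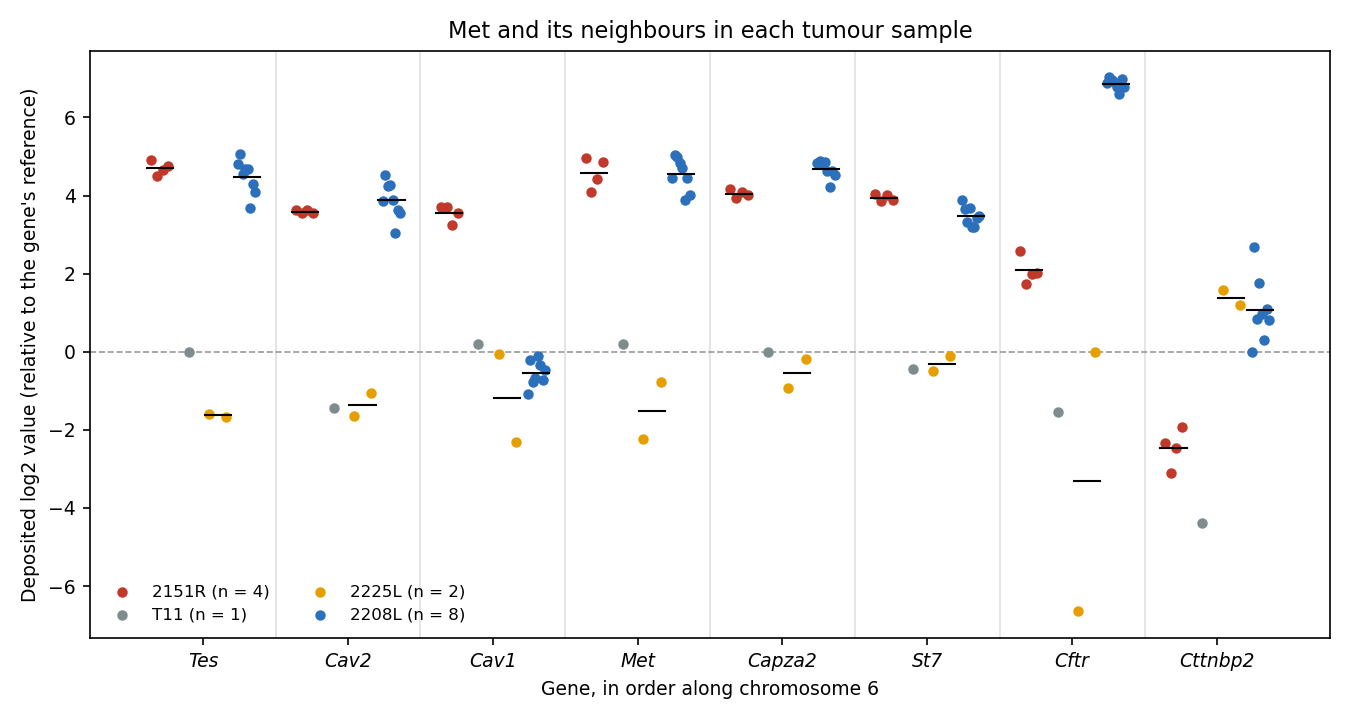
Deposited log2 value of each of the 8 genes (y axis) in every sample, with genes in chromosome order on the x axis, 1 point per sample coloured by model and a black bar at the mean of models with more than 1 sample. Tes, Cav2, Met, Capza2 and St7 are high in 2151R and 2208L and low in T11 and 2225L, while Cav1, Cftr and Cttnbp2 each depart from this.

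The 5 genes Met, Tes, Cav2, Capza2 and St7, were high in both 2151R and 2208L and low in both T11 and 2225L. Met was 4.95, 4.09, 4.43 and 4.85 in the samples of 2151R, and its lowest, median and highest values in 2208L were 3.88, 4.59 and 5.05. It was 0.20 in T11 and -2.25 and -0.77 in 2225L. The samples of 2151R and 2208L overlapped, and the lowest of them lay 3.68 log2 units above the highest of the other 3 samples. The difference in means of Met in 2151R minus 2208L was 0.03, so the gene for which the stretch is named did not set these models apart.

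Tes, the adhesion gene, was 4.91, 4.50, 4.66 and 4.75 in 2151R, and its lowest, median and highest values in 2208L were 3.68, 4.62 and 5.06. It was exactly 0, its reference level, in T11, and -1.60 and -1.66 in 2225L. The 2 models with high values overlapped here too, with a difference of 0.22 in 2151R minus 2208L. Cav2 lay between 3.54 and 3.64 in 2151R and between 3.04 and 4.52 in 2208L, at -1.44 in T11 and at -1.66 and -1.06 in 2225L. Its spread in 2151R (SD 0.047, n = 4) was smaller than in 2208L (SD 0.47, n = 8).

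Capza2, the capping protein gene, lay between 3.94 and 4.17 in 2151R and between 4.23 and 4.89 in 2208L, and was exactly 0 in T11 and -0.93 and -0.17 in 2225L. Every sample of 2151R was below every sample of 2208L at this gene, by 0.62 in the means, which is small beside the distance of both to T11 and 2225L. St7 lay between 3.85 and 4.04 in 2151R and between 3.19 and 3.89 in 2208L, at -0.45 in T11 and at -0.49 and -0.12 in 2225L. Over the 8 genes, 1 lay wholly above and 3 wholly below 2208L in 2151R, where 20.6% and 18.2% of all genes did. These counts belong to the comparison on which the genes were picked.

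A gap of at least 2 log2 units between the lowest sample of a model and the highest of T11 and 2225L was chosen after the values were seen. Samples of 2151R and 2208L had also served in choosing the 8 genes, so counts of these genes are a description and no test. In 2151R, 6 of the 8 genes had such a gap, as did 0.666% of all genes, and in 2208L 6 did, as did 0.521%. In both models at once it was found for 5 of the 8, namely Met, Tes, Cav2, Capza2 and St7, and for 17 genes of the table (0.0984%). A further 3 of those 17 are neighbours: Lsm8, which encodes a subunit of a ring that binds U6 RNA, and the noncoding Gm15473 and Gm4876. Of the other 9, Gm44744 was not placed and 8 lie outside the window, among them Grb10 (chromosome 11), which encodes an adaptor of receptor tyrosine kinases, Scin (chromosome 12), which encodes an actin-severing protein, and Cecr2, at a distance on chromosome 6. Without the ROSEN sample of 2225L the count over all genes was 30, and 6 of the 8 genes were in it, Cftr being the added one.

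The comparison of 2225L with 2208L was tested across all genes, with the caution that 2208L also served in choosing the genes. By limma with Benjamini-Hochberg adjustment over all 17271 genes, 6 of the 8 were lower in 2225L and 0 were higher, where 17.3% of all genes were called lower and 15.6% higher. The median difference of the 8 was -5.23, against -0.04 for all genes. Met differed by -6.06 (SE 0.39, limma adjusted p 2.06e-07), which is 66.6-fold on the deposited scale, and both samples of 2225L lay below all 8 of 2208L, as they did at 6 of the 8 genes and at 16% of all genes. Tes differed by -6.11 (SE 0.29, limma adjusted p 1.67e-08) and Capza2 by -5.23 (SE 0.21, limma adjusted p 4.90e-09). Cav2 fell by 5.23 (SE 0.31) and St7 by 3.78 (SE 0.19). The smallest of the called differences, that of St7, was 13.8-fold. Macrophage markers were also lower in 2225L: the mean of 9 was -2.05 and -0.87 there, from -0.71 to 0.28 in 2208L, from 0.57 to 0.97 in 2151R and 0.98 in T11. Limma called 6 of them lower than in 2208L and all 9 lower than in 2151R, and their part in the result was not tested.

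Cav1 and Cttnbp2 did not pass the test in that comparison. Cav1 differed by -0.64 (SE 0.42, limma adjusted p 0.267). It was -0.06 in the CP sample and -2.31 in the ROSEN sample of 2225L, and with the ROSEN sample alone it was called lower (-1.76, limma adjusted p 0.0018), while with the CP sample alone the difference was 0.49. Cttnbp2 differed by 0.33 (SE 0.54, limma adjusted p 0.681), and its sign turned with quantile normalization (-0.11) and with sample weights (-0.05).

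Against 2151R, whose samples also served in choosing the genes, 7 of the 8 were lower in 2225L and 1 was higher, where limma with the same adjustment called 25.8% of all genes lower and 22.8% higher. Met differed by -6.09 (SE 0.42, limma adjusted p 1.38e-07) and Tes by -6.34 (SE 0.31). Cav1, which had not been called against 2208L, differed by -4.73 (SE 0.46, limma adjusted p 2.67e-06). Cttnbp2 was the gene that was higher in 2225L, by 3.84 (SE 0.59, limma adjusted p 0.000146). The samples of 2225L and 2151R did not overlap at any of the 8 genes, with 2225L below at 7 and above at 1, where 33.4% and 28.9% of all genes were. These comparisons share the samples of 2225L, so their likeness is no separate support.

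**Figure D2:**
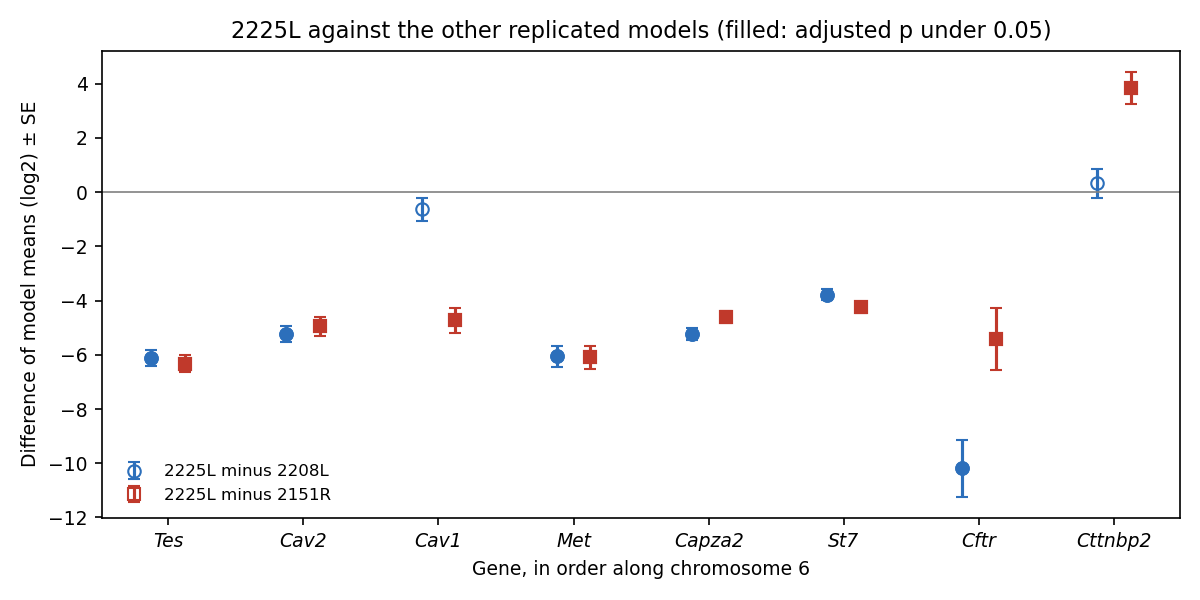
Difference in means of 2225L (n = 2) from 2208L (n = 8, circles) and from 2151R (n = 4, squares) for each gene in chromosome order, on the log2 scale, with the SE of the limma fit as bars and filled symbols where the adjusted p-value was under 0.05. Differences of Tes, Cav2, Met, Capza2 and St7 run from -6.34 to -3.78 in both comparisons, and those of Cav1, Cftr and Cttnbp2 depend on the model compared.

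Cftr, the channel gene, followed a pattern of its own. It was 2.59, 1.75, 1.98 and 2.0 in 2151R, and its lowest, median and highest values in 2208L were 6.61, 6.90 and 7.02. It was -1.53 in T11, -6.64 in the CP sample and exactly 0 in the ROSEN sample of 2225L. Every sample of 2208L lay above every sample of 2151R, both lay above T11 and 2225L, and T11 fell between the samples of 2225L. The difference in means between 2151R and 2208L was -4.78, at a gene where St7, the nearest listed gene before it, differed by 0.47.

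Each gene has its own 0, so the value of Cftr minus that of Met can be read only by how it shifts between samples. It ran from 1.95 to 2.77 in 2208L and from -2.85 to -2.34 in 2151R, and it was -1.73 in T11 and -4.40 and 0.77 in 2225L. The models did not overlap here either, the mean of 2208L being 2.31 ± 0.34 (SD, n = 8) and that of 2151R -2.50 ± 0.24 (SD, n = 4). Cftr in 2225L differed from 2208L by -10.19 (SE 1.04, limma adjusted p 1.26e-05) and from 2151R by -5.40 (SE 1.14, limma adjusted p 0.00173), and the samples of 2225L lie so far apart that these sizes are imprecise. Among all genes, 18.6% were lower by more than 1 unit in the CP than in the ROSEN sample, and of the 8 genes Met (-1.48) and Cftr were, while Cav1 was higher by 2.25.

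Epithelial markers, which are given above, moved with Cftr in part: their mean was high in 2208L and low in 2151R and T11, but highest in 2225L, where Cftr was lowest in 1 sample. That higher mean rests on the keratin genes Krt5 (9.81 in 2225L minus 2208L), Krt19 (5.67) and Krt14 (4.50), the 3 of 14 that limma called, while the others differed by -0.26 to 0.69. Their part in the result was not tested. Among genes of epithelial ion transport, 6 of the 15 in the table were called higher and 2 lower in 2225L than in 2208L (limma with adjustment over all genes), where 15.6% and 17.3% of all genes were. Foxi1, which encodes a regulator of ion-transporting cells, was higher by 7.21 (SE 1.13, values of 3.0 and 8.90 in 2225L), Scnn1b, a sodium channel subunit, by 5.56 (SE 0.67), and its partner Scnn1a by 1.59 (SE 0.31). Slc26a9 and Slc12a2, of the same list, went the other way, with means of 3.76 and 1.92 in 2208L and of 1.37 and 0.16 in 2225L. The median difference of the 15 genes was 0.21, against -0.04 for all genes.

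Cav1 separated from Cav2, its neighbour and partner in caveolae. It was 3.71, 3.70, 3.26 and 3.54 in 2151R and 0.20 in T11, and its lowest, median and highest values in 2208L were -1.08, -0.56 and -0.10. Cav1 minus Cav2 lay between -0.36 and 0.15 in 2151R and between -5.03 and -3.38 in 2208L, a shift between the models without overlap. In 2208L, all 8 samples thus lay above T11 and 2225L at Cav2 and below T11 at Cav1. Both genes sit inside the same run of high genes, between Tes and Met. The difference in means of Cav1 in 2151R minus 2208L was 4.10, or 17.1-fold.

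Markers of endothelial cells, fibroblasts and adipocytes, which are cell types rich in caveolae, had higher medians in 2151R than in 2208L. The mean of 9 skeletal muscle markers had a lower median in 2151R (-2.30) than in 2208L (1.94). The mean of 10 endothelial markers ran from 0.16 to 0.75 in 2151R and from -1.07 to 0.28 in 2208L, that of 10 fibroblast markers from 0.50 to 1.41 and from -1.39 to 0.95, and that of 8 adipocyte markers from 1.76 to 5.06 and from -2.79 to 2.89. In T11 these means were 0.52, 0.95 and -0.58, with Cav1 at 0.20. Ranges of the means overlapped for each list. Of the 10 endothelial markers, Cdh5, Kdr and Emcn lay wholly above 2208L in 2151R, as Cav1 did, and of the 10 fibroblast markers Pdgfra and Dcn. No adipocyte marker did. Over these lists together the share was no larger than that of all genes (20.6%). The other markers of these lists overlapped. The part of such cells in the result was not tested.

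A list for the caveola coat held 12 other genes of the table, among them genes that encode no coat protein, such as Bmx and Ror1. The 12 had a median difference of 0.67 in 2151R minus 2208L, where all genes had 0.10. Cavin1, which encodes a main coat protein besides caveolin, ran from 0.52 to 0.88 in 2151R and from -2.97 to 0 in 2208L, and was 1.27 in T11. Cavin1, Ehd1, Ehd2, Ehd4 and Pacsin2, 5 of the 12, lay wholly above 2208L in 2151R, while Cavin2 (-1.64) and Pacsin3 (-1.16) lay wholly below it, where 20.6% and 18.2% of all genes did. In 2225L, which had Cav1 at -0.06 and -2.31, 3 of the 12 were called higher and 1 lower than in 2208L, where 15.6% and 17.3% of all genes were. Bmx, a Tec-family kinase gene, was the most different (5.74, SE 0.75), followed by Ror1, a receptor gene (2.13, SE 0.32), and Cavin1 was not called (0.54, SE 0.61).

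Cttnbp2, at the far end of the list, showed another order of models, with 2225L and 2208L above 2151R and T11. It was -2.33, -3.11, -2.48 and -1.92 in 2151R and -4.37 in T11, and 1.58 and 1.20 in 2225L. Its lowest, median and highest values in 2208L were 0, 0.91 and 2.69. The samples of 2208L spread more than at any other of the 8 genes (SD 0.84, n = 8) and enclosed those of 2225L, while 2151R and T11 lay wholly below. So of the 2 models in which Met was high, 1 had the next-to-lowest values of Cttnbp2.

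The genes around the 8 show where the shared rise began and ended. The window held the 30 genes of the table on either side of Met in RefSeq order, 61 genes over 21.7 Mb, and the stretches described next were marked off after the values were seen. From Gm15473, at the start of Tes, to Ankrd7, beyond Cttnbp2, 13 genes over 1.82 Mb had a median of 3.60 in 2151R and 3.77 in 2208L, against -0.45 in T11 and -1.35 and -0.77 in 2225L. The exceptions in this stretch, apart from the listed genes, included Wnt2, a Wnt ligand gene between St7 and Cftr, with means of 0.65 in 2151R and 0.17 in 2208L. Lsm8, just past Cttnbp2, was 3.60 and 3.90 in these models and below 0 in T11 and 2225L, so the low values of Cttnbp2 in 2151R and of Wnt2 in both models lay inside the run and did not mark its edge. Gm4876 and Gm15473 (17058801 to 17065587) both overlap Tes on the opposite strand and the counting is not stated to use strand, so their reads cannot be told apart from those of Tes where they overlap.

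**Figure D3:**
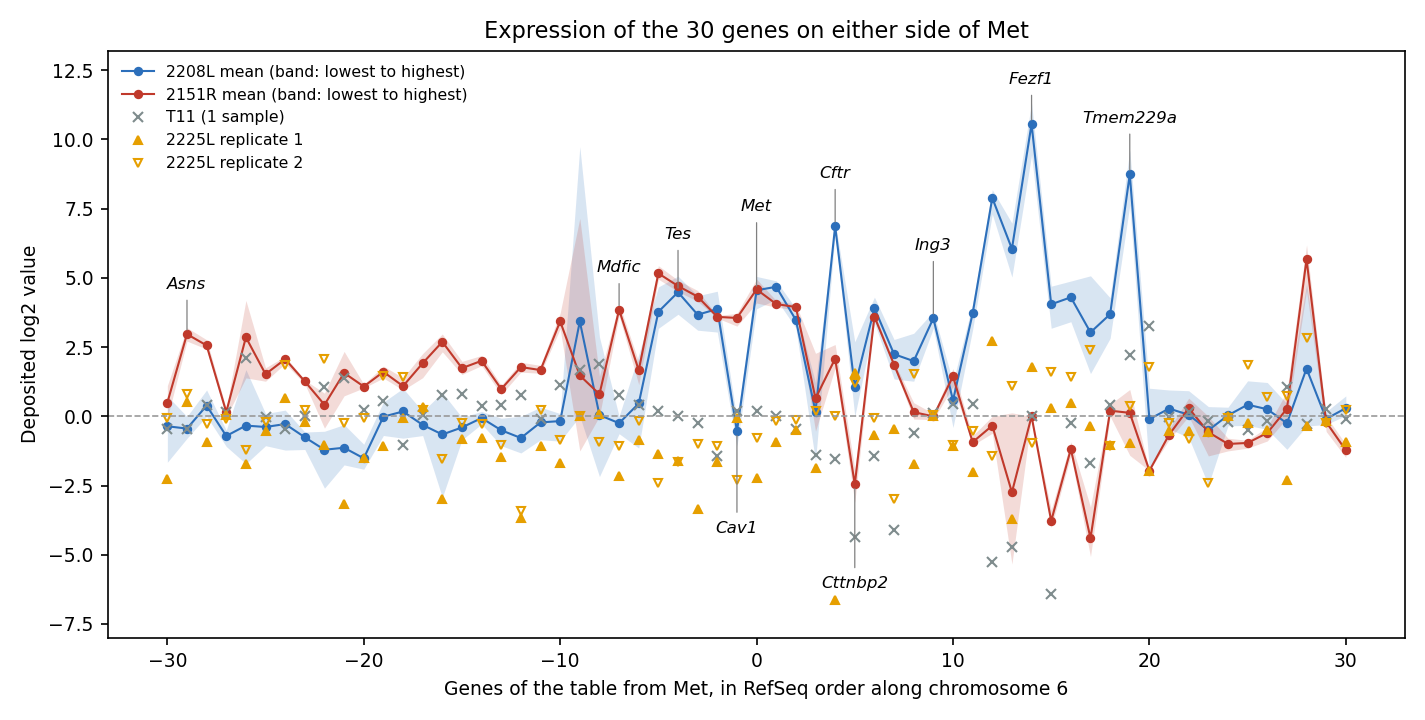
Deposited log2 value (y axis) of the 61 genes by their distance in genes from Met (x axis), with the mean and the range of the samples of 2151R and 2208L as lines and bands and single samples of T11 and 2225L as symbols. Both lines are raised from 5 genes before to 7 genes after Met with dips at Wnt2 and Cttnbp2 and, in 2208L, at Cav1, and 2151R is raised further to the left and 2208L further to the right.

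On either side the models parted. The 24 genes from Asns to Tfec, before Tes, had a median of 1.67 in 2151R and -0.32 in 2208L, and 16 of them lay in 2151R above T11 and both samples of 2225L, as did 11.8% of all genes, and 0 did in 2208L (4.81% of all genes). Mdfic, for example, was 3.85 in 2151R and -0.25 in 2208L. The 12 genes from Tspan12 to Tmem229a, beyond Ankrd7, had a median of 3.88 in 2208L and -0.17 in 2151R. There 9 genes lay in 2208L above T11 and 2225L, and 1 did in 2151R. From Gpr37 on, 11 genes had medians of 0.06 in 2208L and -0.60 in 2151R. The median difference in 2151R minus 2208L was 2.10 in the first of these stretches, 0.03 in the shared one and -6.46 in the one after it, so the window as a whole (0.47) mixed a stretch high in 2151R with one high in 2208L.

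Of the 53 neighbours that are not among the 8, limma called 19 lower and 4 higher in 2225L than in 2208L, where 17.3% and 15.6% of all genes were. The most different were Fezf1 (-10.16), which encodes a forebrain zinc finger factor, Tmem229a (-9.04) and Aass (-7.35), a lysine-degrading enzyme gene. All 3 lie in the stretch high in 2208L alone. At Fezf1, the 4 samples of 2151R and T11 shared the value 0 exactly, so its level there is not read as measured. The largest called rises were at Rpa3 (1.54), a single-strand DNA binding subunit gene, Asns (1.12), the asparagine synthetase gene, and Umad1 (0.76), all before Tes. Against 2151R, 25 of the 53 were called lower and 6 higher in 2225L, where 25.8% and 22.8% of all genes were.

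Among 16020 windows of 9 neighbouring genes along the genome, ranked by their median difference as a description, those with Met stood near the top in each comparison with a low model. For 2208L minus 2225L the highest, at 5.23, was first in rank, and for 2151R minus 2225L it was 5.46 and sixth of all. For T11 in place of 2225L the ranks were 12 and 10 with medians of 4.68 and 4.40. The first rank for 2208L minus T11 belonged to another chromosome 6 window, which ends at Tmem229a (6.51). For 2151R minus 2208L the highest window with Met had a median of 0.75 and rank 1366. The first rank there belonged to a chromosome 14 window (5.13), and windows overlap, so neighbouring ranks share genes.

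Within 2208L, the comparison of samples titled PBS with those titled 3day nt was not used in choosing the genes. Met was 5.05, 5.0, 4.84 and 4.72 in the PBS samples and 3.88, 4.45 and 4.01 in the 3day nt samples. Tes lay between 4.56 and 5.06 in PBS and between 3.68 and 4.29 in 3day nt, and Cav2 between 3.88 and 4.52 and between 3.04 and 3.63. The subsets did not overlap at these genes or at Capza2, so PBS was wholly above at 4 of 8, where it was at 21% of all genes. By limma with Benjamini-Hochberg adjustment, Met (0.78, SE 0.17, adjusted p 0.0157), Cav2 (0.82, SE 0.21, adjusted p 0.0252) and Tes (0.72, SE 0.19, adjusted p 0.0283) were higher in PBS, so 3 of 8 were called higher and 0 lower, where 17.4% and 16.5% of all genes were. Capza2 differed by 0.34 (SE 0.14, limma adjusted p 0.0924), St7 by 0.10 (SE 0.16), Cftr by 0.12 (SE 0.13) and Cav1 by 0.07 (SE 0.20).

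Skeletal muscle markers moved with this difference. The mean of 9 such markers was 10.39 and 9.78 in replicates 6 and 8 of 2208L, both 3day nt, and 1.71 in replicate 7, the other one, while the PBS samples lay from -2.92 to 3.16. All 9 markers were in the table. Met was lowest in replicate 6 and next to lowest in replicate 8. Without replicates 6 and 8, none of the 8 genes was called (Met 0.45, limma adjusted p 0.313), and the comparison then has 1 sample of 3day nt, assumed to vary like the others. Without replicate 6 alone, or without replicate 8 alone, 0 were called as well, and without replicate 2 or without replicate 4 only 1 was. Other markers moved as well: the mean of 8 adipocyte markers ran from -2.79 to 2.70 in PBS and from 2.50 to 2.89 in 3day nt, and that of 8 T cell markers from -2.19 to 0.13 and from 0.02 to 0.83. By limma, 1 of the 9 muscle, 1 of the 8 adipocyte and 2 of the 8 T cell markers were called lower in PBS, where 16.5% of all genes were. The part of these cells in the result was not tested. PBS and 3day nt libraries carry numbers from separate ranges, and their titles carry separate letter codes (DH and KM). The titles' subsets, these codes and the library numbering therefore cannot be told apart.

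**Figure D4:**
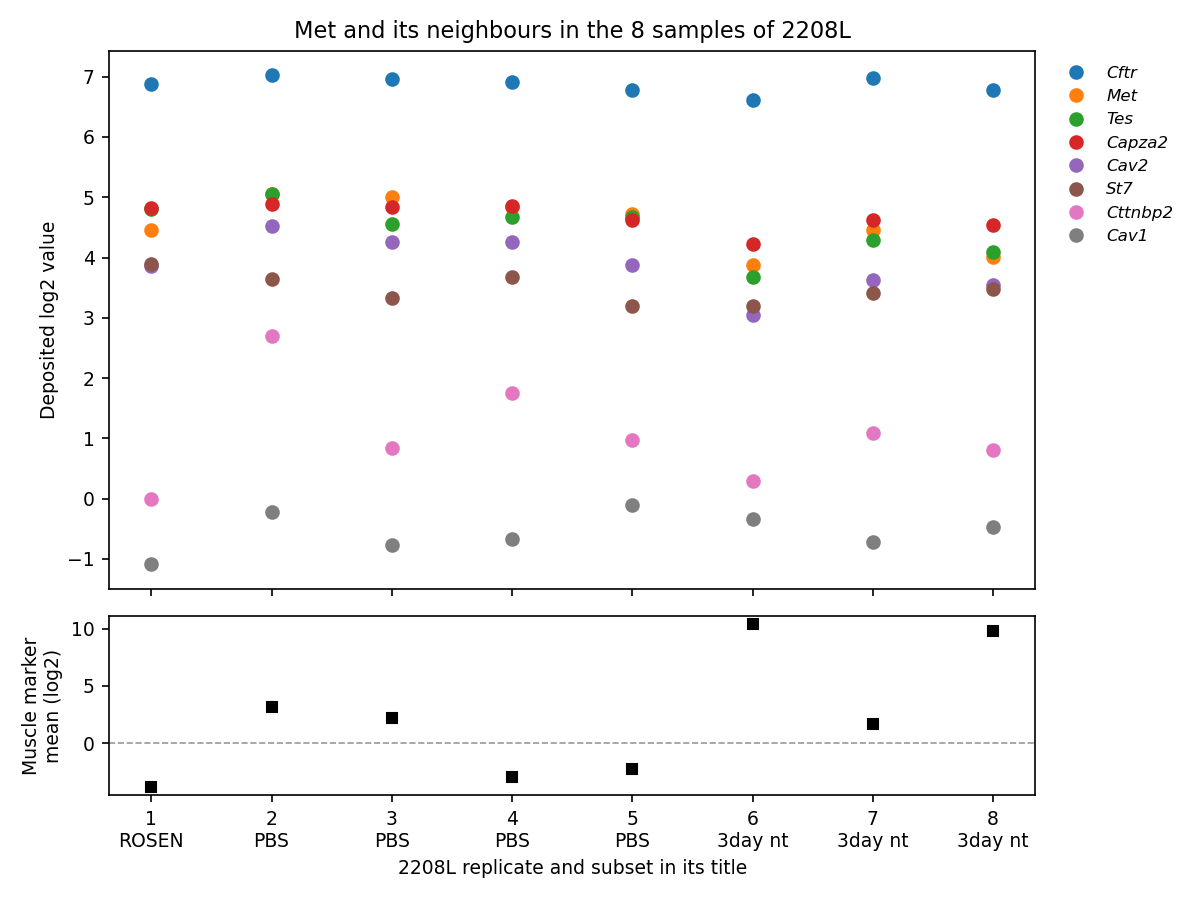
Deposited log2 values of the 8 genes (upper panel) and mean of 9 skeletal muscle markers (lower panel) in each sample of 2208L, labelled by replicate and the subset in its title. Met, Tes, Cav2, Capza2 and St7 are lowest in replicate 6, where the muscle mean is 10.39. Cftr is also lowest there, at 6.61, and its highest value is 7.02.

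From sample to sample within 2208L, Met, Cav2, Tes and Capza2 varied together, and St7 did so less. Over the 8 samples, Pearson correlations among Met, Cav2, Tes, Capza2 and St7 ran from 0.26 to 0.95 with a median of 0.86, and Met with Cav2 gave the highest. The lowest was Met with St7, and Cav2 with St7 gave 0.46. Cftr, whose level over models was another, gave 0.77 with Met and 0.85 with Capza2. With Met, Cttnbp2 gave 0.64 and Cav1 -0.02. Without replicates 6 and 8 the median among Met, Cav2, Tes, Capza2 and St7 was 0.62, with a lowest value of -0.18, again Met with St7. Cftr then gave 0.31 with Met and 0.44 with Capza2, while Cttnbp2 gave 0.67 and Cav1 0.47 with Met. Samples share subset, library range and tumour content, and these correlations are a description of 8 samples.

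Over all 15 samples, the genes of the table most like Met, apart from the 8, predicted symbols and genes with repeated values, were Eif1a (r = 0.96), Scin (0.96), Grb10 (0.96), Trim34b (0.95) and Cecr2 (0.95). Tes (0.99), Capza2 (0.98), Cav2 (0.98) and St7 (0.96) were as close to Met as these, while Cftr gave 0.83, Cav1 0.32 and Cttnbp2 0.01. Those most like Cftr were Fxyd6 (0.97), which encodes a regulator of the sodium pump, Cyp4f18 (0.96), Tnfsf10 (0.96), B4galt1 (0.95) and Gtpbp3 (0.95), none of them on chromosome 6. The samples share models, so a correlation here mostly reflects the order of 4 models.

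Of 28 genes of MET signalling in the table, limma called 4 higher and 8 lower in 2225L than in 2208L, where 15.6% and 17.3% of all genes were, and their median difference was -0.41 (all genes -0.04). In PBS against 3day nt, where Met was higher, 9 of the 28 were called higher and 2 lower, where 17.4% and 16.5% of all genes were, with a median of 0.29 (all genes -0.05). Hgf, the ligand of the receptor, was 1.45, 1.13, 0 and 0.97 in 2151R, 1.33 in T11, -2.87 and -1.73 in 2225L and from -1.63 to 0.89 in 2208L. Hgf in 2225L minus 2208L was -1.85 (SE 0.64, limma adjusted p 0.0417), so ligand and receptor were both lower there, while T11 had Hgf in the range of 2151R and Met far below it. Hgf was also higher in PBS than in 3day nt, by 1.81 (SE 0.26, limma adjusted p 0.00561). In 2225L minus 2208L, Mst1r, the related receptor Ron, was not called (-1.0, SE 0.63). Its ligand gene Mst1 was higher in 2225L by 7.92 (SE 0.52), although 3 samples of 2208L shared 1 exact value at it. Between 2151R and 2208L, whose Met values overlapped, the samples also overlapped at Hgf, while Mst1r ran from 1.02 to 3.06 in 2151R and lay above every sample of 2208L (-1.60 to 1.0).

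Capza1 and Capzb, which encode other subunits of capping protein, did not share the rise of Capza2. Capza1, another alpha subunit gene, ran from 0.32 to 0.50 in 2151R and from -0.68 to -0.27 in 2208L. It was 0.75 in T11, and -0.91 and -0.47 in 2225L. Neither Capza1 (-0.25, SE 0.17) nor Capzb, the beta subunit gene (0.38, SE 0.16), was called between 2225L and 2208L, where Capza2 differed by -5.23. Of 16 genes that work with capping protein or at filament ends, 1 was called higher and 5 lower in that comparison, where 15.6% and 17.3% of all genes were. Enah, a filament-elongating protein gene, differed by -2.62 (SE 0.21) and Carmil3, a capping protein regulator, by 2.33 (SE 0.71).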

How the data were processed

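RNA-seq expression was given for 15 samples in 1 table. The deposited values are log2 values by the name the authors gave the table, set around 0 gene by gene, with no missing value, ranging from -14.55 to 13.11. The reference samples, the offset, the normalization between samples and the strand setting are not given in the sources used here. Poly(A) libraries were made with a TruSeq kit per the labels' protocols, and mm10, STAR and Salmon are named in the submitters' processing notes without a role. Values were used as deposited. In 727 genes at least 2 samples shared an exact value.

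Titles gave the model of each sample, and replicate numbers follow accession order. Tests used limma 3.58.1 under R 4.3.3 (lmFit, then eBayes without trend) on all 15 samples with a mean per model, or on the 7 PBS and 3day nt samples, and were called at a Benjamini-Hochberg adjusted p-value under 0.05 over all 17271 genes. The fit was tested on simulated data. RefSeq's GRCm38.p6 table placed 16183 genes (93.7%) by symbol, and its promoters matched all 8 genes.

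The 8 genes, the gene lists and the rules were chosen with earlier results of these data known. Named beside the 8 were the genes of the window between or next to them or among the 3 most different called in each direction, the 5 most correlated with Met and with Cftr, and, per list, the 2 most different called genes and fixed examples (Hgf, Mst1r, Cavin1, Capza1, Capzb, Scnn1a). Mdfic, Tfec, Tspan12 and Gpr37, and the genes away from the window with a gap in both models, were named after their values were seen. So were Krt5, Krt14, Krt19, Cdh5, Kdr, Emcn, Pdgfra, Dcn, Slc26a9 and Slc12a2, and the genes of the caveola coat list other than Cavin1, Bmx and Ror1.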

Additional observations from a re-analysis of the deposited data

How the results depend on the processing

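Counts of the 8 genes called in 2225L against 2208L (6 lower, 0 higher) and against 2151R (7 lower, 1 higher) stayed within 1.5 times under all alternatives run: median centring, quantile normalization, trend or robust eBayes, filters on SD and on repeated values, sample weights, library prefix as a covariate, fits of 2 models, leaving out each sample, leaving out the 3 muscle-rich samples, and a minimum of 1 log2 unit. For PBS against 3day nt, the 3 genes called higher became 0 without the muscle-rich samples and 0 with a minimum of 1 log2 unit, and 0 to 3 when single samples were left out.

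Signs turned only at differences that were not called before, and the cause was not tested. In 2225L minus 2208L, Cav1 ran from -1.76 (without replicate 1 of 2225L, then called) to 0.49 (without replicate 2), and Cttnbp2 was -0.11 with quantile normalization and -0.046 with sample weights. In PBS minus 3day nt, Cav1 was -0.021 with quantile normalization, -0.087 with sample weights and from -0.046 to 0.18 when single samples of 2208L were left out (below 0 without replicates 2, 5 or 7), and Cftr was -0.068 without the muscle-rich samples. Capza2 was called there with median centring (0.41) and with sample weights (0.32), and Tes was not with a trend (0.72).

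With 15 genes on either side of Met, the median difference was -3.43 in 2225L minus 2208L and -2.50 in 2225L minus 2151R, against -0.98 and -1.49 with 30. The number of genes at least 2 units above T11 and 2225L in both 2151R and 2208L (17) was 30 with a gap of 1 and 11 with a gap of 3, by construction, and ran from 17 to 30 when single samples were left out. These gap settings were chosen after seeing the data. No paired analysis was possible because no replicate number is shared between groups in the labels. Depth is unknown, so counting error could not be weighed.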
